A study of Mus musculus with 9 samples.

Results

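The genes described here are 37 genes of DNA replication and nucleotide supply, chosen by name from their known roles. These genes and the other gene lists below were chosen with earlier results of these data known. Their shares beside those of all tested genes are therefore descriptions. All 37 were found among the 23285 genes of the deposited expression table, and all 37 had a completed test in each of the 3 comparisons. They comprise 12 genes of origin licensing, 6 of helicase activation, 8 of the sliding clamp, its loader and single-strand binding, 6 of polymerases and lagging strand processing, and 5 of deoxynucleotide supply.

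RNA sequencing was done on immature erythroid cells of C57BL/6 mouse bone marrow, in 9 libraries that form 3 groups of 3. All mice carried floxed Trim28 alleles, TRIM28(flox/flox). The control group, FFa, had no Cre and was sorted as CD71(hi)TER119+. The group KOa, described as modestly deleted, was TRIM28(flox/flox):Mx1Cre and was sorted through the same gate, CD71(hi)TER119+. The group KOb, described as severely deleted, was TRIM28(flox/flox):Mx1Cre too but was sorted as CD71(hi)TER119-. Mx1Cre is a recombinase under an interferon-inducible promoter that acts in blood cells and beyond, and it was switched on with 5 poly(I:C) injections, 2 weeks before analysis. The series description puts the undeleted share of the gene at 5 to 8% in KOa and 1 to 4% in KOb. Whether poly(I:C) was given to the controls is not stated there, and no age is given. Cre and deletion differ together, as do the gate and the degree of deletion between KOa and KOb, so their parts cannot be told apart. Nothing in the labels ties the libraries of a group to separate mice, and the tests may thus measure technical spread in part.

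Before S phase, the origin recognition complex, CDC6 and CDT1 load a ring of the 6 MCM proteins onto DNA, and this step is called licensing. In S phase, CDC45 and the GINS complex turn the ring into an active helicase, RPA coats the exposed single strands, PCNA holds the polymerases on their template, and ribonucleotide reductase with thymidylate enzymes supplies the building blocks. Early erythroblasts divide rapidly, and replication is tied to their maturation.

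The values are FPKM, fragments scaled by transcript length and library size, and each group has 1 value for its 3 pooled libraries. No spread between libraries is therefore shown. A value after ± is a standard error, obtained by dividing the log2 ratio by the test statistic in the authors' deposited table. A gene is counted as called, or as having risen or fallen, when its q in the authors' deposited table is below 0.05. Library depth is unknown. Trim28 itself stood at 26.0 FPKM in FFa, 6.64 in KOa and 4.76 in KOb, so the mutants kept 25.6% and 18.3% of the control level.

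Erythroid markers were present in all groups, with Gata1 at 118 FPKM in FFa, 138 in KOa and 105 in KOb, while Klf1 was at 79.2, 80.6 and 62.0. The groups differed in markers of other cells. The sum of 13 granulocyte markers was 48015 FPKM in FFa, 15760 in KOa and 12909 in KOb. Of these, 6 fell in KOa and 7 in KOb, S100a9, Ngp and Ltf among them, while Ctsg and Mpo rose in both. The sum of 10 B cell markers was 241, 22.5 and 21.2, and that of 8 macrophage markers 88.0, 59.3 and 34.1. The sum of 6 megakaryocyte markers was 34.0, 67.8 and 54.5, that of 6 T and NK cell markers 19.6, 15.9 and 15.5, and that of 5 stem and progenitor markers 8.99, 6.21 and 13.2. None of these markers was listed at 0 in any group. Of 11 late erythroid genes, 4 fell in KOa and 10 in KOb, and their sum went from 9231 FPKM in FFa to 6806 in KOa and 4483 in KOb. Beside these counts and those of the granulocyte markers, 14.1% of all tested genes were called lower in KOa and 15.2% in KOb. Called higher were 7.99% and 12.8%. The part of these other cells and stages in the results below was not tested, and in such bulk samples fewer cells of a type and less RNA per cell cannot be told apart.

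The replication genes were well expressed and varied little between the 3 groups. The ratio of the highest to the lowest group was under 1.5 for 32 of the 37 genes, or 86.5%, against 51.0% of 9956 tested genes. The median of that ratio was 1.23, against 1.49 over those genes. Those 9956 genes include weakly expressed ones, whereas each of the 37 had at least 5 FPKM in its highest group. The widest, 1.89, belonged to Rpa3, which encodes the smallest subunit of the single-strand binding complex RPA. Rrm2, the regulatory subunit of ribonucleotide reductase, was the most abundant of the 37 in each group, at 365 FPKM in FFa, 333 in KOa and 291 in KOb. It stood above 98.1% of the genes with at least 1 FPKM in FFa. Pcna, the sliding clamp, came next at 226, 192 and 195 FPKM. Orc1, a subunit of the origin recognition complex, was the lowest in FFa at 5.67 FPKM, and Gins3, a subunit of the GINS complex, was the lowest in KOa at 5.68 and in KOb at 5.11.

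**Figure D1:**
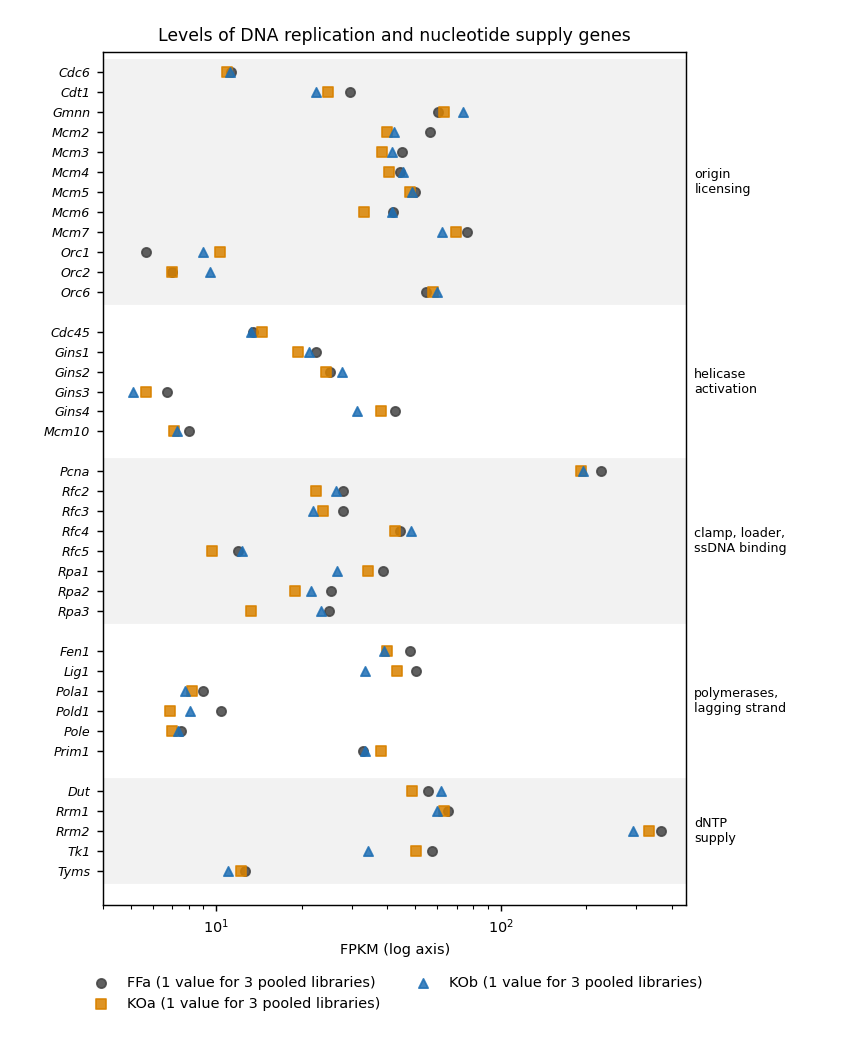
FPKM (log axis) of the 37 genes in FFa, KOa and KOb, grouped by role, with 1 point per group for 3 pooled libraries and no error bar because no value per library was used. The points of a gene lie close together for most genes, Rrm2 and Pcna stand far to the right, and FFa is the lowest point for Orc1.

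Small differences ran mostly one way. FFa was the highest group for 26 of the 37 genes, or 70.3%, against 38.2% of 4622 tested genes with at least 5 FPKM in their highest group. The FPKM was lower in KOa than in FFa for 32 of 37 genes (86.5%, against 56.7% of all genes tested). It was lower in KOb than in FFa for 27 (73.0%, against 50.9%). Among tested genes with at least 5 FPKM in their highest group, these shares were 52.3% and 51.2%, and both median log2 ratios were -0.02. Scaling to the 75th percentile left 25 of the 37 genes lower in KOa and 28 in KOb. The median log2 ratio to FFa was -0.17 in KOa, against -0.08 over all genes tested, and -0.12 in KOb, against -0.01. The same scaling, which shifts all genes alike, moved the KOa median to -0.079. Between the mutants it was 0.03, against 0.05, with 16 of 37 genes lower in KOb, and scaling each group to its 75th percentile turned this median to -0.097 with 25 genes lower. These counts describe group values and carry no test. FFa is part of both mutant comparisons, so their counts are not independent of each other. The summed FPKM of the 37 genes was 1742 in FFa, 1560 in KOa and 1535 in KOb, beside the marker sums given above. The summed FPKM of all genes was 1239023.0 in FFa, 1275908.1 in KOa and 659008.5 in KOb, so these sums are not parts of equal totals. The 9 erythroid markers measured summed to 613057.0, 961551.3 and 279212.9 FPKM.

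Few of the genes passed the test. In KOa against FFa, 4 of 37 were called, or 10.8%, where 22.1% of 10761 tested genes were called. Orc1 rose, against a background of 7.99% called higher, and Mcm2, Rpa3 and Pold1 fell, against 14.1% called lower. In KOb against FFa, 5 of 37 were called, or 13.5%, against 28.0% of 10584 tested genes. Orc1 rose again (12.8% called higher in all), and Gins4, Rpa1, Lig1 and Tk1 fell (15.2% called lower). In KOb against KOa, 2 of 37 were called, or 5.41%, against 16.2% of 10468 tested genes. Rpa3 was higher in KOb (10.0% called higher in all) and Tk1 was lower (6.19% called lower). In all, 8 of the 37 genes were called at least once and 29 never.

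The calls rest on the deposited p-values, which are smaller than the deposited statistics imply. Read as a standard normal, the statistics gave 1 called gene in KOa against FFa, Rpa3 (7.47% of tested genes were called this way), 0 in KOb against FFa (9.54%) and 1 between the mutants, again Rpa3 (2.69%). At an unadjusted p below 0.05, 6, 10 and 5 of the 37 genes passed in the 3 comparisons by the deposited p. These are 16.2%, 27.0% and 13.5%, against 32.2%, 39.7% and 27.9% of all tested genes. By the normal reading 3, 3 and 1 of the 37 passed, where 1778 of 10761, 2318 of 10584 and 1040 of 10468 tested genes did. Of the 11 called results, 4 had an interval of 1.96 standard errors that included 0.

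The intervals of most genes were narrow enough to bound a change. The median standard error was 0.29 on the log2 scale in each comparison. The whole interval lay inside a 2-fold change for 32 of 37 genes in KOa against FFa, for 30 in KOb against FFa and for 33 between the mutants. Among tested genes with at least 5 FPKM in their highest group, 60.1%, 53.3% and 62.4% had such an interval. Genes without a call may still differ within those bounds.

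**Figure D2:**
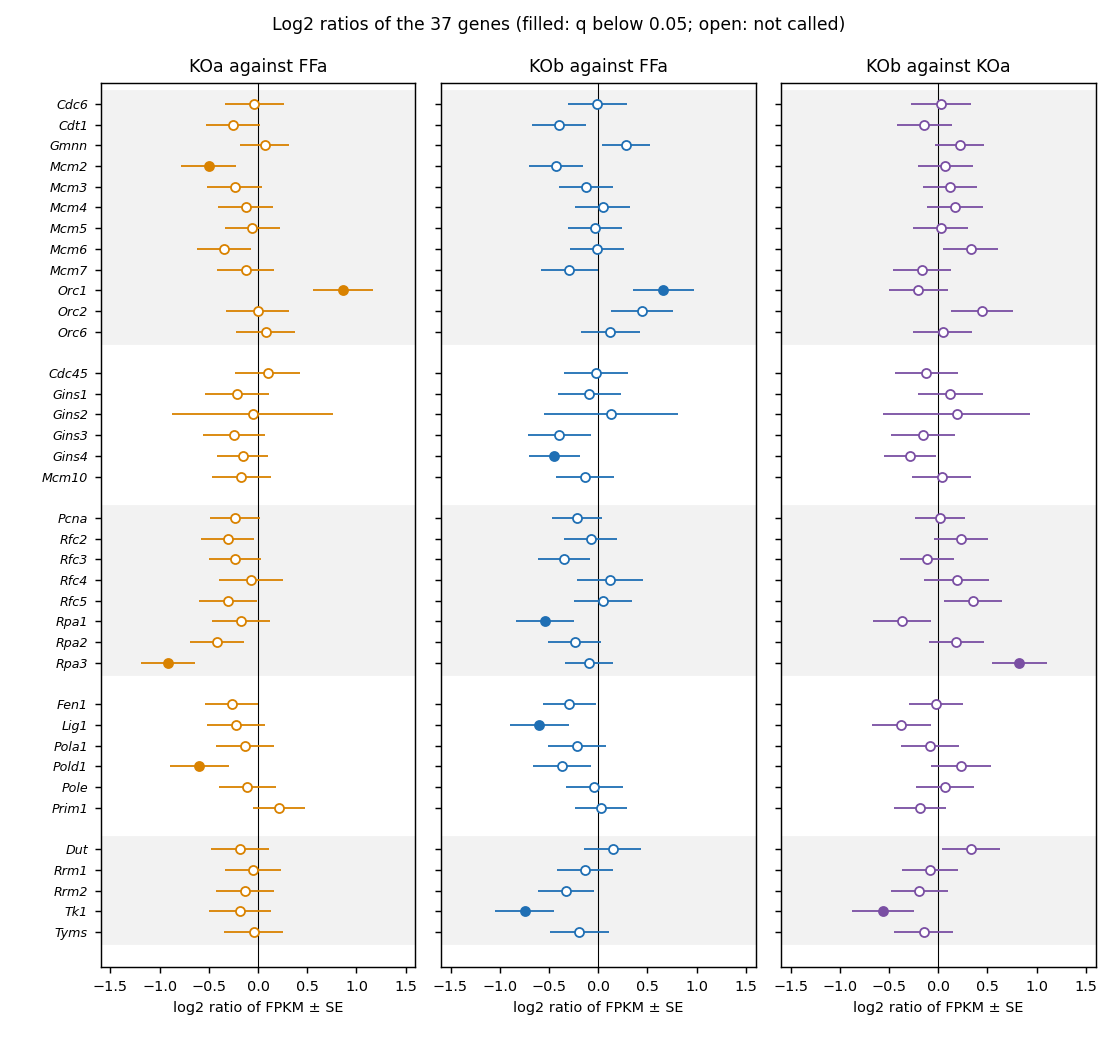
Log2 ratios of FPKM with their standard errors for the 37 genes in the 3 comparisons, grouped by role, where filled points were called at a q below 0.05. In the comparison of KOa with FFa most points lie a little left of 0, with Orc1 far to the right and Rpa3 far to the left, and in the comparison of KOb with KOa Rpa3 lies to the right and Tk1 to the left.

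Among the licensing genes, Orc1 was the one that rose. Orc1 (chr4:108575705-108616030 of GRCm38.p6, the mm10 build) encodes the largest subunit of the origin recognition complex, the platform on which the MCM ring is loaded. Its level was 5.67 FPKM in FFa, 10.3 in KOa and 8.98 in KOb. Both mutant values were above the control, and the lower one was still 1.58 times the control value. The log2 ratio to FFa was 0.86 ± 0.31 in KOa (q = 0.000619 in the authors' deposited table), and 0.66 ± 0.31 in KOb (q = 0.00405). The mutants differed from each other by a log2 ratio of -0.20 ± 0.30 (q = 0.460 in the authors' deposited table), with an interval from -0.78 to 0.38. An antisense transcript, Gm12743, overlaps 10.8% of the exon bases of Orc1 in the annotation, and no source used here says whether the counting was stranded.

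The other origin recognition genes of the licensing role, Orc2 and Orc6, did not pass the test. Outside that role, Orc5 was at 3.73 FPKM in FFa, 5.11 in KOa and 6.25 in KOb. It rose in KOb, with a log2 ratio to FFa of 0.74 ± 0.38 (q = 0.0166 in the authors' deposited table). That call was lost when the statistic was read as a standard normal, and in KOa Orc5 had no call. Orc2 was at 7.0 FPKM in FFa, 6.98 in KOa and 9.52 in KOb, with a log2 ratio to FFa of 0.44 ± 0.31 in KOb (q = 0.0592 in the authors' deposited table). Adjusting the p-values within that comparison alone would call it. Orc6 stood much higher, at 54.7, 57.7 and 59.6 FPKM. The ratio of Orc1 to Orc2 was 0.809 in FFa, 1.48 in KOa and 0.944 in KOb, so the order of the 2 genes in KOa was the reverse of that in the other groups. In the annotation 29.8% of the exon bases of Orc2 overlap the antisense gene Nif3l1, which was at 1.18, 1.39 and 2.03 FPKM.

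The MCM ring genes kept similar levels. In FFa they ran from 42.0 FPKM for Mcm6 to 76.2 for Mcm7, a 1.81-fold range, in KOa from 33.1 for Mcm6 to 69.9 for Mcm7, 2.11-fold, and in KOb from 41.5 for Mcm3 to 62.3 for Mcm7, 1.5-fold. Mcm7 was thus the highest of the 6 in each group. It was the most abundant licensing gene by its mean over the groups, and its log2 ratio to FFa was -0.13 ± 0.29 in KOa and -0.29 ± 0.29 in KOb, with q values of 0.640 and 0.213 in the authors' deposited table. Mcm2 (chr6:88883474-88898780) was the ring gene that fell, from 56.6 FPKM in FFa to 40.0 in KOa. Its log2 ratio was -0.50 ± 0.28 (q = 0.0231 in the authors' deposited table), and its interval, from -1.05 to 0.05, included 0. In KOb it was at 42.1 FPKM, a log2 ratio of -0.43 ± 0.28 (q = 0.0523 in the authors' deposited table), above the threshold. It was called there when q was adjusted within each comparison or only genes with at least 1 or 5 FPKM were tested. The log2 ratio of KOb to KOa was 0.07 ± 0.28, and -0.05 after scaling to the 75th percentile. The ratio of Mcm2 to Mcm5 was 1.13 in FFa, 0.833 in KOa and 0.860 in KOb.

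Mcm5 had the narrowest range within the ring, with 50.0 FPKM in FFa, 48.0 in KOa and 48.9 in KOb. Mcm6 was at 42.0, 33.1 and 41.6 FPKM, with a log2 ratio to FFa of -0.35 ± 0.28 in KOa (q = 0.133 in the authors' deposited table). Mcm3 was at 45.1, 38.2 and 41.5 FPKM and Mcm4 at 44.1, 40.4 and 45.5. All of these ring genes except Mcm2 stayed without a call in each comparison.

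The loading factor Cdt1 and its inhibitor Gmnn (geminin) had opposite signs in KOb, and neither passed the test. Cdt1 was at 29.6 FPKM in FFa, 24.7 in KOa and 22.4 in KOb. The KOb value gave a log2 ratio to FFa of -0.40 ± 0.27 (q = 0.0832 in the authors' deposited table). Gmnn was at 60.3, 63.2 and 73.5 FPKM, a log2 ratio of 0.29 ± 0.24 in KOb (q = 0.246 in the authors' deposited table). The ratio of Gmnn to Cdt1 went from 2.04 in FFa to 2.56 in KOa and 3.27 in KOb, a description with no test of its own. Cdc6, which recruits CDT1 and the ring to origins, was at 11.3, 10.9 and 11.2 FPKM, the narrowest range of the 37 genes.

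Upstream sequences of 4 licensing genes are shown because Orc1 rose, Mcm2 fell and Mcm5 and Mcm6 had no call. Each run is the 160 bases before the start site in the RefSeq promoter table for GRCm38.p6, read 5′ to 3′ on the strand of the gene. For Orc1 and Mcm5 that start site lies inside the annotated gene. Capitals mark 3 kinds of words that were searched on both strands. They are the E2F words TTTCGCGC, TTTGGCGC, TTTCCCGC and TTTGCCGC, the word CCAAT, and TTTGAA, the core of the cell cycle homology region (CHR). The runs lie at chr4:108579294-108579453 on the plus strand for Orc1, chr8:75109349-75109508 on the plus strand for Mcm5, chr1:128359706-128359865 on the minus strand for Mcm6 and chr6:88898781-88898940 on the minus strand for Mcm2.
Orc1: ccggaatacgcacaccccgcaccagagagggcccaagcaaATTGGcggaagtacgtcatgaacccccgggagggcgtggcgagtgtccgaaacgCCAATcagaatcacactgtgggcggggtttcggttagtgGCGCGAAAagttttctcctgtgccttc
Mcm5: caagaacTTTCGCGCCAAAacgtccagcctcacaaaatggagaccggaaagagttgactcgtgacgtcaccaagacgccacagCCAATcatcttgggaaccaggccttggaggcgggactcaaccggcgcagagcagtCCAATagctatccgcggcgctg
Mcm6: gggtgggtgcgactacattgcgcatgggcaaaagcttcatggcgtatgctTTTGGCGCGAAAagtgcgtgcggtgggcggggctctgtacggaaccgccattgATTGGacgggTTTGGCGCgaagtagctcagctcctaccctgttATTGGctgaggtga
Mcm2: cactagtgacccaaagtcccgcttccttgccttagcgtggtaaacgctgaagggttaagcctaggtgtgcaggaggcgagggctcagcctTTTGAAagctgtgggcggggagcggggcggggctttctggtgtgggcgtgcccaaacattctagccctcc
Orc1 has 1 E2F word, which begins 27 bases before the start, and 2 CCAAT words. Mcm5 has 2 E2F words, on opposite strands and overlapping each other, and Mcm6 has 3, of which 2 overlap. The run of Mcm2 holds no E2F or CCAAT word and has 1 CHR word, 70 bases before the start. A CCAAT word of Mcm2 lies just outside the run, 175 bases before the start. Genes with E2F words are thus found here both with a call (Orc1) and without one (Mcm5 and Mcm6), and a match describes letters and no binding.

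By the authors' Cuffdiff test, 0 of 6 helicase activation genes were called in KOa against FFa and 0 of 6 in KOb against KOa. Of all tested genes, 22.1% and 16.2% were called. An unadjusted p below 0.05 was reached by 0 of the 6 in either, against 32.2% and 27.9% of all tested genes. In KOb against FFa 1 of 6 fell, where 15.2% of all tested genes were called lower. With 6 genes these counts are a description. Gins4 (chr8:23226610-23237668), a subunit of the GINS complex that joins the ring to CDC45, was at 42.4 FPKM in FFa, 38.0 in KOa and 31.2 in KOb, so that each mutant was below the control and KOb was the lowest. Its log2 ratio in KOb was -0.45 ± 0.26 (q = 0.0447 in the authors' deposited table), close to the threshold, and its interval, from -0.95 to 0.06, included 0. Gins4 was the most abundant gene of this role.

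The GINS genes, whose protein products form a complex of equal parts, had unequal transcript levels in every group. Gins3 was the lowest at 6.72, 5.68 and 5.11 FPKM and Gins4 the highest, a range of 6.32-fold in FFa, 6.69-fold in KOa and 6.09-fold in KOb. Gins3 had a log2 ratio to FFa of -0.39 ± 0.32 in KOb (q = 0.146 in the authors' deposited table). Gins1 was at 22.5, 19.4 and 21.2 FPKM. Gins2 was at 25.2, 24.3 and 27.6 FPKM, and its standard error of 0.82 in KOa was the largest of the 37 genes. The antisense gene Gse1 overlaps 67.3% of its exon bases in the annotation.

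Cdc45, the helicase cofactor, was at 13.5, 14.5 and 13.3 FPKM, and Mcm10, which helps the helicase to start, at 8.03, 7.14 and 7.31. Their log2 ratios in the 3 comparisons lay between -0.17 and 0.10, and none was called.

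In the clamp, loader and single-strand binding role, the calls fell on RPA genes. RPA is a complex of 3 subunits encoded by Rpa1, Rpa2 and Rpa3. Rpa3 (chr6:8255936-8259141) was at 25.0 FPKM in FFa, 13.3 in KOa and 23.5 in KOb. KOa held about 53.0% of the control value while KOb was near it. The log2 ratio to FFa was -0.92 ± 0.27 in KOa (q = 0.000619 in the authors' deposited table), and -0.09 ± 0.25 in KOb (q = 0.795). The direct test between the mutants gave 0.82 ± 0.28 (q = 0.00205 in the authors' deposited table). Rpa3 was the only one of the 37 genes whose calls were kept when the statistic was read as a standard normal, and no other annotated gene overlaps it.

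Rpa1 (chr11:75300259-75348454), the large DNA-binding subunit, had another pattern. It was at 38.6 FPKM in FFa, 34.3 in KOa and 26.6 in KOb, so KOb was the lowest. It fell in KOb by a log2 ratio of -0.54 ± 0.30 (q = 0.0133 in the authors' deposited table), with an interval from -1.12 to 0.04. Its log2 ratio in KOb against KOa was -0.37 ± 0.29 (q = 0.104 in the authors' deposited table). Rpa2, the middle subunit, was at 25.4, 19.0 and 21.5 FPKM, and its ratio in KOa, -0.42 ± 0.28, had q = 0.0743 in the authors' deposited table. The ratio of Rpa3 to Rpa1 was 0.648 in FFa, 0.387 in KOa and 0.881 in KOb. The 3 RPA genes spanned a 1.54-fold range in FFa, 2.59-fold in KOa and 1.24-fold in KOb.

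The upstream run of Rpa3 is shown for comparison with the runs above because this gene had the largest fall. It lies at chr6:8259142-8259301 on the minus strand.
Rpa3: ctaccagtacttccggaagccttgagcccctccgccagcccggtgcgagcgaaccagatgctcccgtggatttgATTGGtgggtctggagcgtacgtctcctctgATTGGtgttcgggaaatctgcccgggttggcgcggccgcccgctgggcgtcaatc
It holds 2 CCAAT words, both on the opposite strand, and no E2F or CHR word.

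Pcna and the loader genes had no call. Pcna, the most abundant gene of this role, had log2 ratios to FFa of -0.23 ± 0.26 in KOa and -0.21 ± 0.25 in KOb, with q values of 0.357 and 0.404 in the authors' deposited table. Its intervals ran from -0.73 to 0.27 and from -0.71 to 0.28. The small subunits of replication factor C, which load the clamp, ranged from 11.9 FPKM for Rfc5 to 44.5 for Rfc4 in FFa, from 9.66 to 42.4 in KOa and from 12.3 to 48.3 in KOb. Rfc2 was at 27.8, 22.4 and 26.4 FPKM and Rfc3 at 28.0, 23.8 and 22.0. All 8 genes of the role had a lower FPKM in KOa than in FFa, and 6 of 8 did in KOb. After scaling each group to its 75th percentile, Rfc4 alone of the 8 would stand above FFa in KOa.

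Among the polymerase and lagging strand genes, Pold1 fell in KOa and Lig1 fell in KOb. Pold1 (chr7:44532744-44548815) encodes the catalytic subunit of polymerase delta, which copies the lagging strand. It was at 10.4 FPKM in FFa, 6.86 in KOa and 8.07 in KOb, so both mutants were below the control. The log2 ratio was -0.60 ± 0.30 in KOa (q = 0.0122 in the authors' deposited table), and -0.36 ± 0.29 in KOb (q = 0.138). Lig1 (chr7:13277175-13311426) encodes the ligase that joins Okazaki fragments and was the most abundant gene of the role. It was at 50.3 FPKM in FFa, 43.1 in KOa and 33.3 in KOb. The log2 ratio was -0.22 ± 0.30 in KOa (q = 0.375 in the authors' deposited table), and -0.60 ± 0.30 in KOb (q = 0.00479). Between the mutants neither gene passed the test, with log2 ratios of 0.23 ± 0.30 for Pold1 and -0.37 ± 0.30 for Lig1. An antisense gene, Zswim9, shares 5.79% of the exon bases of Lig1.

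The remaining genes of this role did not pass the test. Fen1, the flap nuclease that trims Okazaki fragments, was at 47.9 FPKM in FFa, 39.8 in KOa and 39.1 in KOb. The antisense gene Gm10143 overlaps 78.8% of its exon bases. Prim1, the catalytic subunit of primase, was at 32.8, 37.9 and 33.4 FPKM and was the gene of this role with a positive log2 ratio in KOa, 0.21 ± 0.26. Pola1 and Pole, the catalytic subunits of polymerases alpha and epsilon, were at 8.99, 8.21 and 7.76 FPKM and at 7.53, 6.99 and 7.34 FPKM.

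Of the 5 deoxynucleotide supply genes, Tk1 fell in KOb. Tk1 (chr11:117815519-117826087) encodes thymidine kinase of the salvage pathway. It was at 57.3 FPKM in FFa, 50.4 in KOa and 34.1 in KOb, so KOb stood below both other groups. The log2 ratio to FFa was -0.18 ± 0.32 in KOa (q = 0.585 in the authors' deposited table), and -0.75 ± 0.30 in KOb (q = 0.00328). The direct test between the mutants gave -0.56 ± 0.32 (q = 0.0397 in the authors' deposited table), and its interval, from -1.18 to 0.06, included 0. The antisense gene Afmid shares 1.6% of the exon bases of Tk1 and was itself at 15.5, 11.7 and 6.20 FPKM. Late erythroid genes were lower in KOb as well, as given above, and their part in this fall was not tested.

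The upstream run of Tk1 is shown because this gene differed between the mutants. It lies at chr11:117826015-117826174 on the minus strand, before a start site that lies inside the annotated gene.
Tk1: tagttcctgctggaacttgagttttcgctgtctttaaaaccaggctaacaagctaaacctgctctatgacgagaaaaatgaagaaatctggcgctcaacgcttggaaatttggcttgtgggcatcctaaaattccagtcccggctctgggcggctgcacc
It holds none of the E2F, CCAAT or CHR words.

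Ribonucleotide reductase, which makes deoxynucleotides from ribonucleotides, did not pass the test in either subunit. Rrm2 had log2 ratios to FFa of -0.14 ± 0.29 in KOa and -0.33 ± 0.29 in KOb, with q values of 0.647 and 0.190 in the authors' deposited table. Rrm1, the catalytic subunit, was at 65.4 FPKM in FFa, 63.1 in KOa and 59.7 in KOb. The ratio of Rrm2 to Rrm1 was 5.58, 5.27 and 4.88. Tyms, thymidylate synthase, was at 12.6, 12.2 and 11.0 FPKM. Dut, which removes dUTP before it can enter DNA, was at 55.6, 49.0 and 61.6 FPKM, and its log2 ratio in KOb against KOa was 0.33 ± 0.29 (q = 0.151 in the authors' deposited table).

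Among other replication factors, outside the 37 genes, Pold4 fell and Top1 rose in both mutants. Of 35 tested, 2 rose and 4 fell in KOa, 2 rose and 2 fell in KOb, and 1 was higher and 1 lower in KOb against KOa, which is 17.1%, 11.4% and 5.71% of the list, against 22.1%, 28.0% and 16.2% of all tested genes. Pold4, the smallest subunit of polymerase delta, fell from 13.7 FPKM in FFa to 6.27 in KOa and 6.80 in KOb, log2 ratios of -1.13 ± 0.32 and -1.01 ± 0.32. It thus fell in KOa together with Pold1. Of the other Pold genes of the list, named after their values were seen, Pold2 also fell in KOa, by -0.50 ± 0.33. Pold3 had no call there, at 0.11 ± 0.29. Top1, which relaxes DNA ahead of the fork, rose from 54.2 FPKM to 115 in KOa and 87.0 in KOb. Dna2, a nuclease of Okazaki fragment processing, fell by a log2 ratio of -0.77 ± 0.34 in KOa, and Rnaseh2c, a subunit of RNase H2, by -0.70 ± 0.21 in KOb. The median log2 ratio of the list was 0.00 in KOa, -0.05 in KOb and 0.05 between the mutants.

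The wider nucleotide supply genes held many called rises in KOb. Of 31 tested, 2 rose and 5 fell in KOa, 11 rose and 2 fell in KOb, and 13 were higher and 0 lower in KOb against KOa. The last count of 0 lower is by the authors' Cuffdiff test, and the normal reading of the statistic left 6 of the 13. The share called was 22.6% in KOa, where 22.1% of all tested genes were called. In KOb and between the mutants it was 41.9% each, against 28.0% and 16.2% of all tested genes. The median log2 ratios were -0.04 in KOa, 0.41 in KOb and 0.45 in KOb against KOa. Dctd, a dCMP deaminase, was at 0.676 FPKM in FFa, 0.388 in KOa and 2.81 in KOb, so only KOb exceeded 1 FPKM. Its log2 ratio in KOb was 2.05 ± 0.64. Shmt2, a mitochondrial enzyme of one-carbon supply, rose from 17.2 FPKM in FFa to 31.3 in KOa and 38.4 in KOb, and Mthfd2 of the same pathway from 16.0 to 34.9 and 32.1. Atic, which carries out the last steps of purine synthesis, was at 1.47, 1.41 and 3.25 FPKM, a log2 ratio of 1.15 ± 0.40 in KOb.

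Nme2 and Impdh1 were lower in KOa than in both other groups. Nme2, a nucleoside diphosphate kinase with a close paralog that could share its reads, was at 15.8 FPKM in FFa, 4.96 in KOa and 15.2 in KOb. Impdh1, an enzyme of guanine nucleotide synthesis, was at 1.16, 0.355 and 0.995 FPKM. Both were called lower in KOa against FFa and higher in KOb against KOa, as Rpa3 was. Rrm2b, the p53-inducible subunit of ribonucleotide reductase, fell in both mutants, from 1.64 FPKM to 0.732 in KOa and 0.524 in KOb. Named after their values were seen, Cad, Mthfd1, Gart, Adsl and Impdh2 of pyrimidine, folate and purine synthesis rose in KOb, with log2 ratios from 0.66 to 1.12. Of 6 early stage genes, 3 rose in KOb (Cd34, Kit and Cd44) and 0 fell, where 12.8% of all tested genes were called higher and 15.2% lower. In KOa 1 rose (Kit) and 2 fell (Myb and Myc), against 7.99% and 14.1% of all tested genes. In KOb against KOa 3 were higher (Kit, Myb and Myc) and 0 lower, against 10.0% and 6.19%. The part of cell stage in the rises of the nucleotide supply genes was not tested.

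**Figure D3:**
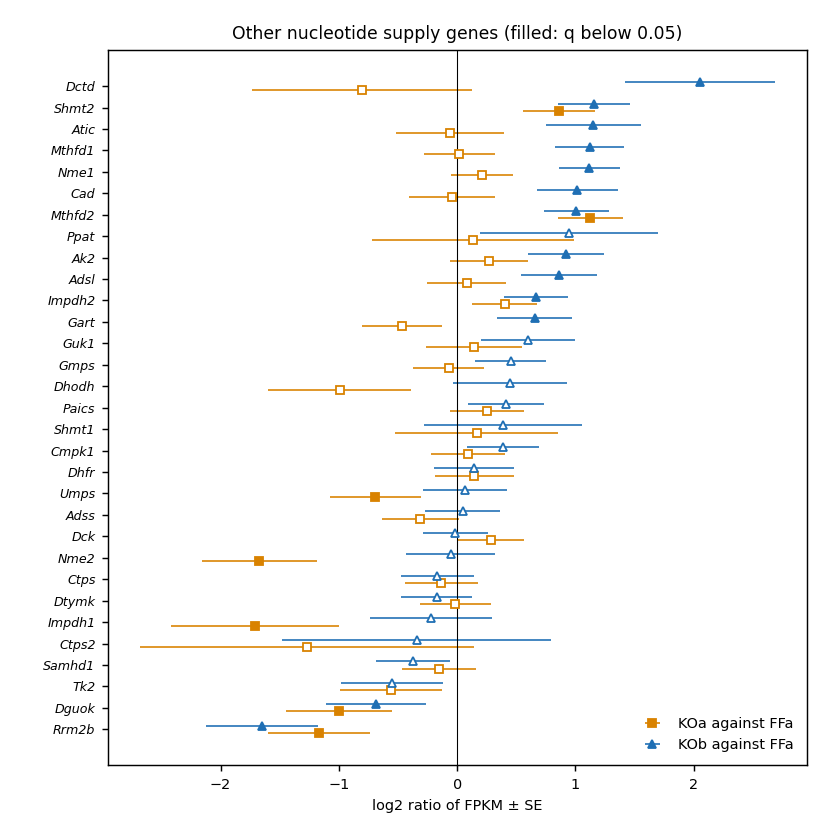
Log2 ratios of FPKM with standard errors for 31 other nucleotide supply genes in KOa and in KOb, each against FFa, ordered by the KOb value, where filled points were called at a q below 0.05. The upper genes have KOb triangles to the right of 0, with Dctd farthest at 2.05, while most KOa squares beside them lie near 0.

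Genes that control entry into S phase gave calls in both directions. Of 36 tested, 2 rose and 4 fell in KOa, of 35 tested 4 rose and 8 fell in KOb, and of 36 tested 5 were higher and 9 lower in KOb against KOa. These are 16.7%, 34.3% and 38.9% of the list, against 22.1%, 28.0% and 16.2% of all tested genes. Cdkn1a, which encodes the kinase inhibitor p21, was at 1.15 FPKM in FFa, 8.38 in KOa and 7.19 in KOb, log2 ratios of 2.87 ± 0.50 and 2.65 ± 0.50. Cdkn1b, which encodes the inhibitor p27, was at 32.4, 80.1 and 39.0 FPKM, so KOa stood above both other groups. Ccnd3, the cyclin D of maturing erythroblasts, fell from 172 FPKM to 80.4 in KOa. Myc was at 12.8, 6.20 and 13.5 FPKM, a log2 ratio of -1.05 ± 0.32 in KOa.

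In KOb, Cdk6, a kinase that cyclin D activates, rose from 3.14 FPKM in FFa to 13.0, a log2 ratio of 2.05 ± 0.33. Tfdp2, a partner of E2F factors, fell from 59.3 FPKM to 32.9 in KOa and 22.2 in KOb, and Cdkn2d, another kinase inhibitor, from 164 to 78.7 in KOb. Of the 8 E2f genes, named after their values were seen, E2f2, E2f4, E2f7 and E2f8 were lower in KOb than in KOa, with log2 ratios from -0.61 to -0.47. Mki67, a marker of cycling cells, was at 469 FPKM in FFa, 448 in KOa and 402 in KOb. A standard error of 0.63 against FFa left the interval wide. None of these levels was tested for a link to the replication genes.

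Genes of chromatin assembly on new DNA and of the replication stress response were called at shares from below to near those of all tested genes. Of 14 chromatin assembly genes, 1 fell in KOa, Slbp, which binds histone mRNA, with a log2 ratio of -0.70 ± 0.27. In KOb 1 fell, the histone chaperone gene Asf1b, with -0.50 ± 0.26, and between the mutants 1 was higher and 1 lower. These are 7.14%, 7.14% and 14.3% of the list, where 22.1%, 28.0% and 16.2% of all tested genes were called. Of 27 stress response genes, 2 rose and 1 fell in KOa, 2 rose and 3 fell in KOb, and 3 were higher and 1 lower in KOb against KOa, or 11.1%, 18.5% and 14.8% of the list. Atr, the kinase that senses stalled forks, rose in KOb from 0.623 FPKM to 1.59, and H2afx, a histone variant of the damage response, fell from 586 to 319. Brca2, a gene of homologous recombination, fell in both mutants, from 8.49 FPKM to 5.56 and 5.86.

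**Figure D4:**
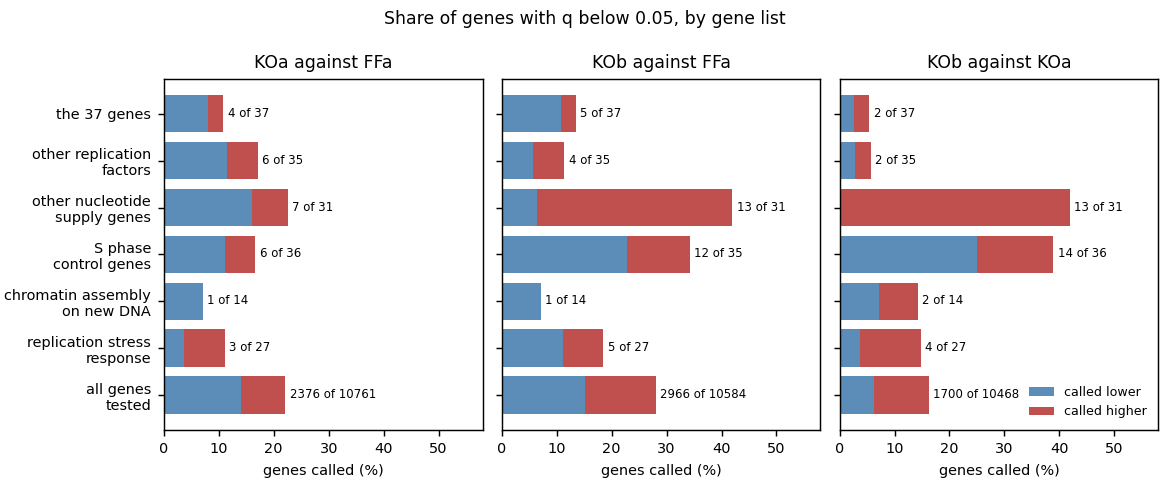
Share of genes called at a q below 0.05 in 6 gene lists and among all genes tested, for the 3 comparisons, with calls in each direction stacked and counts beside the bars. The 37 genes lie below the bar for all genes tested in each comparison, and other nucleotide supply genes and S phase control genes lie above it in both comparisons of KOb.

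Upstream sequence was at hand for 30 of the 37 genes, in the RefSeq promoter table for GRCm38.p6. Within 250 bases before the start site, an E2F word on either strand was present in 8 of 30 genes, or 26.7%, against 1.92% of 27025 genes of that table and 3.66% of 7822 genes that were also tested. These 8 were Mcm5, Mcm6, Mcm7, Orc1, Cdc6, Gins3, Rfc3 and Pola1. CCAAT was present in 19 of 30, or 63.3%, against 34.5% and 37.5%. The CHR word was present in 4 of 30, or 13.3%, against 16.3% and 10.5%. The median GC content was 56.8% for the 30 genes, 52.0% for the table and 59.6% for the tested genes.

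The words were present in called and in uncalled genes. An E2F word was present in 1 of the 7 called genes with an entry, Orc1, and in 7 of the 23 uncalled ones. CCAAT was present in 4 of the 7 and in 15 of the 23. The Mcm7 word lies 165 bases before the start, the Pola1 word 138, the Gins3 word 41 and the Rfc3 word 10. With 7 called genes these shares are a description and no test was made.

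**Figure D5:**
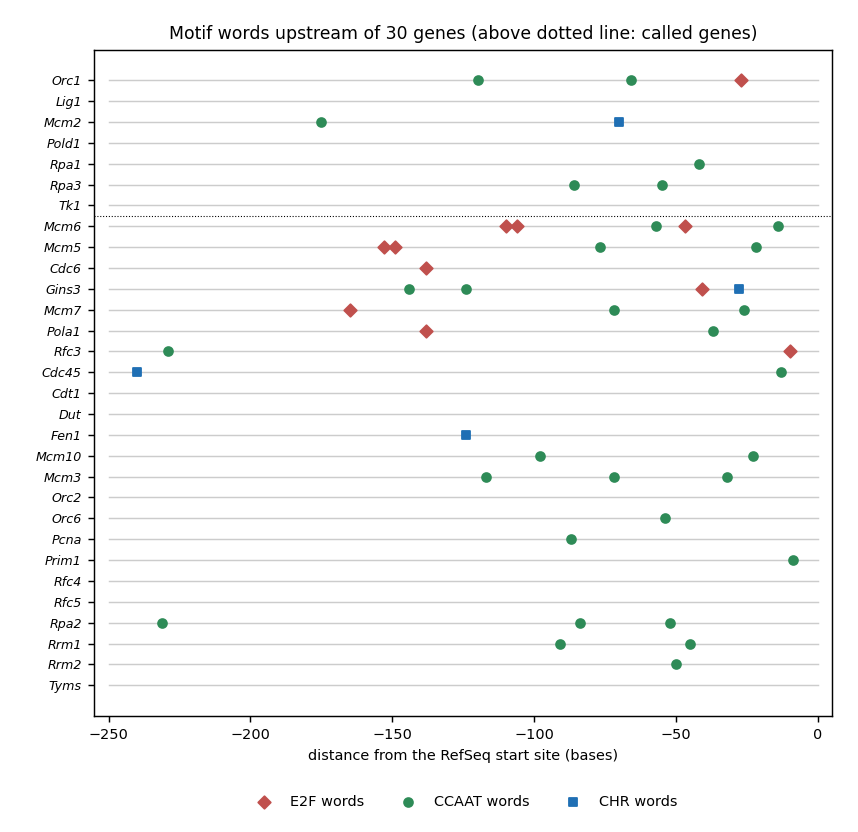
Positions of E2F, CCAAT and CHR words in the 250 bases before the start site of 30 genes, by distance in bases, with the 7 called genes above the dotted line and 1 symbol per word. Of the called genes Orc1 alone has an E2F symbol, while 7 genes below the line have at least 1.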

How the data were processed

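Total RNA was column-purified, DNase-treated and made into 9 libraries with a NuGEN kit, per the labels' protocols. The submitters' processing notes name Cuffdiff 2.1.1, TopHat2 2.0.8b and Bowtie2 2.1.0 with build mm10. The sources used here give no annotation, scaling or strand setting. The authors deposited 1 table in which FPKM values are already pooled by group, so library depth is unknown. The log2 ratio is the authors' deposited value, without a pseudocount. The test statistic is a deposited score. The p-value and the q-value are likewise those the authors deposited. Recomputing showed q to be a Benjamini-Hochberg adjustment over 31813 tested results, and the smallest p, 5e-05, gives a q of 0.000619.

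Standard errors (log2 ratio divided by statistic), intervals of 1.96 standard errors, folds, counts, list sums and motif shares were computed with Python 3.11.15, pandas 2.3.3 and SciPy 1.17.1. Of the code, only the adjustment of p-values and the call at a q below 0.05 were tested on simulated data. The authors' fit gives 3 comparisons, of each mutant with FFa and of KOb with KOa. The members and lists were chosen with earlier results of these data known. Full values are given for members called at least once and for the most abundant member of each role, and from other lists for up to 4 called genes of largest change per comparison. Lists named above share some genes, among them Kit, Myb, Myc and Alas2. Gene positions and upstream sequences come from RefSeq for GRCm38.p6, and gene overlaps from GENCODE M21. Alternatives covered the reading of the statistic, the adjustment, the threshold, expression minimums, pseudocounts and scaling.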

Additional observations from a re-analysis of the deposited data

Results flagged for a closer look

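The levels of 2 replication genes differed between the 2 mutant groups, by the authors' own test of KOb against KOa. Rpa3, the small RPA subunit, was higher in KOb than in KOa, with a log2 ratio of 0.82 (q = 0.00205 in the authors' deposited table). Tk1, thymidine kinase, was lower in KOb than in KOa, with a log2 ratio of -0.56 (q = 0.0397 in the authors' deposited table). The sort gate and the degree of deletion differ together between these groups and cannot be told apart.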

How the results depend on the processing

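No paired analysis was possible because each group has 1 pooled value per gene, and for the same reason no library could be left out and depth limits are unknown. When the statistic was treated as standard normal, KOa against FFa kept 0 genes called higher and 1 lower (Rpa3), KOb against FFa kept 0 higher and 0 lower, and KOb against KOa kept 0 lower. Of the 37 genes, 3 in KOa, 3 in KOb and 1 between the mutants had a normal p below 0.05 before adjustment. At a q below 0.01, the genes called lower numbered 1 in KOa (Rpa3), 2 in KOb (Lig1 and Tk1) and 0 in KOb against KOa. Adjusting within each comparison, or a minimum of 1 or 5 FPKM, added Mcm2 to the genes called lower in KOb against FFa, for 5 in place of 4. Adjusting within each comparison called 2 genes higher in KOb against FFa (Orc1 and Orc2) and 0 lower in KOb against KOa. Of genes with at least 1 FPKM in the higher group, 2 were called higher in KOb against KOa (Orc2 and Rpa3). At a minimum of 5 FPKM, 2 were called higher in KOb against FFa (Orc1 and Orc2) and 2 in KOb against KOa. The median log2 ratio in KOb against KOa became -0.017 after median centring and -0.097 after scaling to the 75th percentile, which shifts all genes by 0.13 in that comparison. That scaling, applied to the count of genes lower in KOb than in KOa after the data were seen, moved it from 16 to 25. The counts lower than FFa became 29 and 25 in KOa and 27 and 28 in KOb under the 2 scalings. Of the 24 ratios of genes called at least once, 23 kept their direction under both scalings and both pseudocounts. The exception was Mcm2 in KOb against KOa, without a call, which went from 0.073 to -0.053 with the 75th percentile.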
